A study of Homo sapiens with 4 samples.

Results

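The comparison is between a library of K562/G01 cells that carried a short hairpin RNA against TCF7 and were given imatinib, and a library of the same cells that carried a scramble hairpin and were left untreated. Both treatments together are therefore set against neither. Of 28482 genes in the deposited table, 13296 had a level of 1 CPM or more (CPM being counts scaled to a common library size) in at least 2 of the 4 libraries of the study, and these genes are the ones described. Just inside this limit was SRXN1, at 0.54, 0.59, 1.36 and 2.81 CPM in the scramble, knockdown, imatinib and combination libraries. Just outside it was MT1F, at 0.845, 0.0328, 1.05 and 0 CPM. The 2 libraries compared are 2 of the 4, and each group has 1 library. No ratio has a replicate check, so sizes are given without a test.

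K562 is a long-established human line of chronic myeloid leukemia, and K562/G01 is a derivative of it that resists imatinib. In the scramble group the cells had been infected with a scramble lentivirus and received no drug. In the combination group they had been infected with a lentivirus for RNA interference of TCF7 and then received imatinib at 1 µM for 48 hours. The 2 other groups, the knockdown without drug and the scramble cells with imatinib at the same dose and time, are given beside many of the results. Where only the combination is given, the value does not show which treatment it goes with. Every group thus carries a hairpin virus, and there is no uninfected culture among the libraries used here. Because all ratios are taken over the same scramble library, the 3 ratios of a gene share that library's error. The labels do not say whether cultures were infected or treated separately. The labels name the source leukocyte and the cell type chronic myeloid leukemia cell.

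Imatinib binds the kinase domain of the BCR-ABL1 fusion protein and blocks its signals to STAT5, RAS and PI3K, on which chronic myeloid leukemia cells depend for growth and survival. TCF7, also called TCF-1, is a DNA-binding factor of the Wnt pathway. It joins beta-catenin to activate genes and TLE corepressors to silence them, and it is best known from T cells and from hematopoietic progenitors. Cells that tolerate imatinib can be held alive by Wnt signals, by other kinases, by drug efflux or by altered metabolism, and gene groups for these processes are described below.

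The libraries held 30634832 to 34095585 counts each, and their TMM scaling factors lay between 0.9938 and 1.01. The combination library gave the largest share of its counts to its 10 most abundant genes, 9.87% against 8.60% in the scramble library. All 10 erythroid markers, which K562 cells are known to express, passed the filter, and their summed level was 3516 CPM in the scramble library and 3334 CPM in the combination library. Of markers of other cells, 3 of 8 in the table for T and NK cells passed, 0 of 5 for B cells, 2 of 7 for monocytes and granulocytes and 3 of 8 for fibroblasts and epithelium. Their summed levels were 27.2 and 23.96 CPM for T and NK cells in the scramble and combination libraries, 38.6 and 45.6 CPM for monocytes and granulocytes, and 179.8 and 205.6 CPM for fibroblasts and epithelium, where nearly all came from KRT19 and EPCAM. CD3E and CD4, defining markers of T cells, had 0 counts in the scramble library. Of the 3 T and NK markers that passed, 1 was 2-fold higher in the combination, at a log2 ratio of 1.56, and 2 were lower by any amount. Of the 3 fibroblast and epithelium markers that passed, 2 were higher and 1 lower, and COL1A1 was 2-fold higher at 2.34. The part of these markers in the results was not tested. In RNA from whole cultures, fewer cells of a kind and less RNA per cell cannot be told apart.

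The target, TCF7 (ENSG00000081059.19), is a protein-coding gene on chromosome 5 from 134114711 to 134151865 in GRCh38. The scramble library had 339 counts of it, the knockdown 78, imatinib alone 367 and the combination 117. In CPM scaled by TMM, the method of edgeR that corrects for library composition, these were 10.2, 2.56, 10.7 and 3.70. Both libraries labelled as knockdown were below both scramble libraries. The log2 ratio of the combination over the scramble library, called the ratio from here on, was -1.45 with a 95% counting interval of -1.78 to -1.16. It comes from the exact binomial distribution of both counts and covers counting error only, since reads from amplified libraries are not independent molecules.

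Across all genes the ratio had a median of 0.01, with 6810 genes above 0 and 6486 below. The middle 90% of genes lay between -0.65 and 0.84, so the upper side reached further. At 2-fold or more stood 631 genes, 4.75% of those measured. Of these, 376 were higher in the combination (2.83%) and 255 were lower (1.92%). Each of the 2 treatments alone gave fewer genes at this size over the same scramble library. The knockdown had 123 higher (0.925%) and 233 lower (1.75%), and imatinib in scramble cells had 111 higher (0.835%) and 63 lower (0.474%). The difference in these counts was not tested. For 124 of the higher and 87 of the lower genes the whole counting interval lay beyond 2-fold. Many genes at 2-fold were scarce, with a median level of 2.92 CPM among the higher and 1.73 CPM among the lower genes, against 24.3 CPM over all genes. Among the 10105 genes with a mean level of at least 5 CPM, 125 were 2-fold higher and 49 were 2-fold lower.

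**Figure D1:**
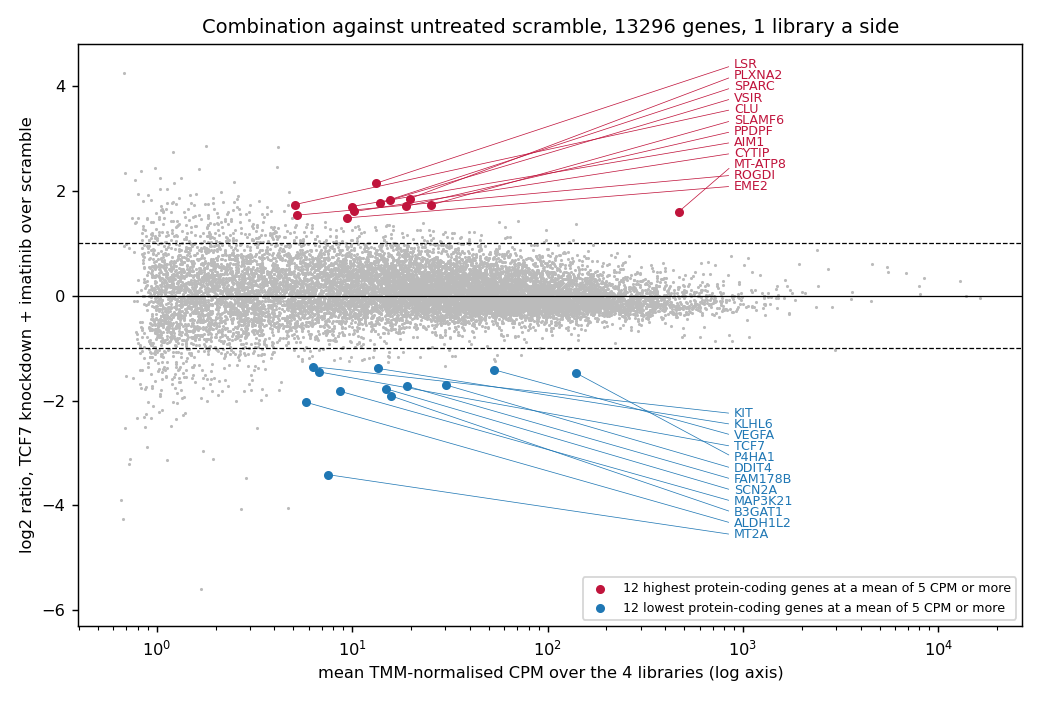
Each grey point is 1 of 13296 genes, with its mean TMM-normalised CPM over the 4 libraries on a log axis and its log2 ratio of the combination over the scramble library; dashed lines mark 2-fold, and a gene with 0 counts in a library is drawn with a prior count of 2. Coloured points are the 12 highest and 12 lowest protein-coding genes with a mean level of at least 5 CPM, from LSR at 2.14 to MT2A at -3.41.

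The ratio went along with the base composition of the transcript. Over 10095 genes with a mean level of at least 5 CPM, Spearman's rank correlation of the ratio with the GC content of the longest transcript was 0.65. It was 0.68 for imatinib alone and -0.11 for the knockdown alone. These are correlations across genes of libraries that share the scramble control, and genes are not independent replicates. The decile of genes poorest in GC, with a median GC content of 36.6%, had a median ratio of -0.20, and 13.7% of its genes were above 0. In the richest decile, with a median GC content of 63.3%, the median ratio was 0.57 and 94.9% of genes were above 0. Of 1010 genes in that richest decile 78 were 2-fold higher, against 0 in the poorest. The genes 2-fold higher had a median GC content of 58.9%, those 2-fold lower 45.01% and all genes 47.3%. Transcript length had a weaker correlation with the ratio, -0.21.

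**Figure D2:**
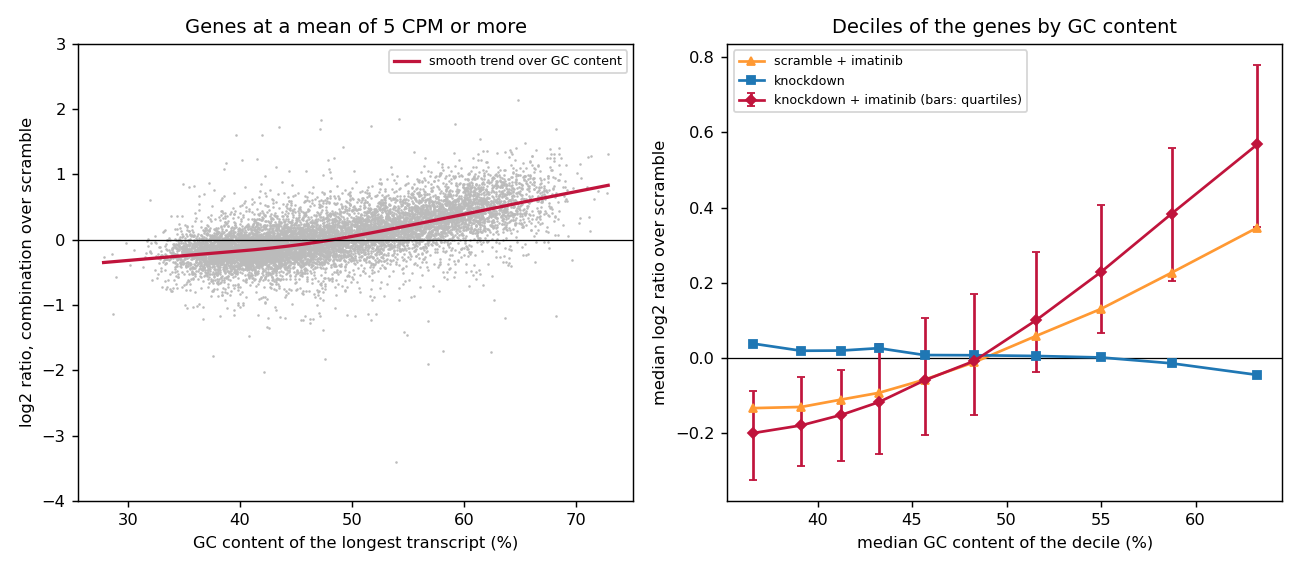
Left, the ratio of the combination over scramble (log2) against GC content (%) of the longest transcript for genes with a mean level of at least 5 CPM, with the smooth trend over GC content in red. Right, the median ratio in each GC decile of these genes, with quartile bars for the combination, which goes from -0.20 to 0.57 across the deciles; imatinib alone goes from -0.13 to 0.35 and the knockdown alone from 0.04 to -0.04.

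A smooth trend over GC content accounted for 24.4% of the deviance of the ratio. With this trend subtracted, 192 genes were 2-fold higher (1.45%) and 251 were 2-fold lower (1.89%), so the share of higher genes among those at 2-fold went from 59.6% to 43.3%. Of the higher genes with a known GC content, 163 of 375 stayed 2-fold higher, against 197 of 252 of the lower genes. The median of the plain ratios was added back after the fit. The median of all genes, 0.01 as measured and 0.02 after removal, was therefore bound to stay close. Most groups below are therefore given with their ratio as measured and with the GC trend removed. The counts of each group are to be read beside those over all genes. As measured these were 2.83% 2-fold higher, 1.92% 2-fold lower and 6810 of 13296 above 0. At such shares a small group would hold few or no genes at 2-fold. Among the 10105 genes with a mean level of at least 5 CPM the shares were smaller, with 125 2-fold higher and 49 2-fold lower. A count of 0 in a list below is therefore not read as a sign that its genes were stable.

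Coding sequence of 2 genes is shown as an example of high and low GC content. Both were picked from the genes with the most extreme ratios, so their ratios do not show the size of the trend. In the poorest GC decile the median ratio was -0.20, and 8 of 1010 genes were 2-fold lower. PPDPF, on chromosome 20 with a transcript GC content of 68.2%, is the richest in GC of the 12 highest genes, and SCN2A, a sodium channel subunit on chromosome 2 at 37.6%, is the poorest of the 12 lowest. The 90 bases from the midpoint of each coding sequence on, in GENCODE transcripts on GRCh38 from 5′ to 3′, are shown with G and C in capitals. They are bases 211 to 300 of 420 in PPDPF and 3007 to 3096 of 6015 in SCN2A, and hold 62.2% and 36.7% G and C.
PPDPF: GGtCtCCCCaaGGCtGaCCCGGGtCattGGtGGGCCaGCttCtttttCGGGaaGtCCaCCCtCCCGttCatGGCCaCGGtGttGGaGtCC
SCN2A: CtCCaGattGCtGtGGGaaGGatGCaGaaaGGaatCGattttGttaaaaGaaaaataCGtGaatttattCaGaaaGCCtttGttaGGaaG
PPDPF was at 10.4 CPM in the scramble library, 10.6 in the knockdown, 20.2 with imatinib and 34.1 in the combination, so the 2 libraries with imatinib stood above the 2 without. Its ratio was 1.70 (1.53 to 1.89), and 1.04 with the trend removed. SCN2A was at 23.6, 11.004, 18.2 and 6.86 CPM in the same order, a ratio of -1.78 (-2.01 to -1.57) that became -1.56. Most of its ratio thus remained, and its level was also low in the knockdown alone, where the correlation with GC content was -0.11.

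As measured, the metallothioneins and their zinc-responsive partners had the lowest median of the 34 gene lists; with the GC trend removed the globins (-0.48) and the hypoxia list (-0.34) were lower. These small proteins rich in cysteine bind zinc and copper, and their genes lie together on chromosome 16, where the zinc-sensing factor MTF1 is known to act on metal response elements in their promoters. MT2A (ENSG00000125148.6, chromosome 16, 56608199 to 56609497) was counted 421 times in the scramble library, 84 in the knockdown, 464 with imatinib and 36 in the combination. Its ratio was -3.41 (-4.01 to -2.99), the lowest of all protein-coding genes with a mean level of at least 5 CPM, against -2.18 for the knockdown alone and 0.08 for imatinib alone. MT1X (56682424 to 56684196) had 71, 22, 51 and 6 counts and a ratio of -3.13 (-4.99 to -2.31). For both genes the combination was the lowest library and the knockdown the next.

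MT1G (56666731 to 56668065) had 97, 16, 112 and 0 counts. A count of 0 allows up to 3 counts, which is 0.0948 CPM, so MT1G was at least 30.9-fold lower in the combination when the scramble count is taken as measured. The counting interval of the log2 ratio, which allows for error in both counts, ended at -4.62. Below the filter, MT1F had 28, 1, 36 and 0 counts and was at least 8.91-fold lower by the same floor, with an interval that ended at -2.76. MT1E had 17, 1, 7 and 0 counts and was at least 5.41-fold lower, with an interval that ended at -1.98. In all 5 genes both knockdown libraries were below both scramble libraries. MT1A, MT1H and MT3 had at most 8 counts in any library.

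The rest of the zinc list did not follow at that size. SLC30A1, the zinc exporter of the plasma membrane and a known target of MTF1, was at 83.1, 75.4, 70.5 and 57.9 CPM, a ratio of -0.52. The zinc importer SLC39A10 had a ratio of -0.42, and MTF1 itself 0.06. Of the 7 members that passed the filter, 3 were 2-fold lower, 0 were 2-fold higher and 5 were below 0. Their median was -0.52, which is SLC30A1's own value and is the same with MT1G at its bound, and -0.31 with the GC trend removed.

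The promoters of MT2A and MT1X are shown because both genes were far below the scramble library and both hold clusters of the core of the metal response element. They are the 250 bases before the RefSeq start on GRCh38.p14 (chr16:56608334-56608583 and chr16:56682220-56682469, both on the plus strand), from 5′ to 3′. Capitals mark TGCACNC or TGCGCNC on either strand, where N is any base, 7 matches in MT2A and 4 in MT1X.
MT2A: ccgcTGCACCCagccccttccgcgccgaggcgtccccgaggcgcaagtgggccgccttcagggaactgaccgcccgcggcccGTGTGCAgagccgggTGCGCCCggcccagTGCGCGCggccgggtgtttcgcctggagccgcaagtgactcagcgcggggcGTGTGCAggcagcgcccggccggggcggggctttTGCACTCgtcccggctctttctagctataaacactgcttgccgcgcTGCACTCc
MT1X: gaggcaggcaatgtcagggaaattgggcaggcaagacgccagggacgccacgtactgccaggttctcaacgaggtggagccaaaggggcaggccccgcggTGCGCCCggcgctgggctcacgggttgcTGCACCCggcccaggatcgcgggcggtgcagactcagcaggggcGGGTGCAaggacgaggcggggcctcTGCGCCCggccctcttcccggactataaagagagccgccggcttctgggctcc
Of 35116 RefSeq promoters of this length, 24.8% hold at least 1 such match. Among the members of the zinc list that passed the filter, 6 had a promoter in the table and 3 of these hold one. The match is not particular to this list. It is also in 6 of 15 promoters of the hypoxia list and 10 of 20 of the glycolysis list, both described below. A match is a description of the letters and not evidence of binding.

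**Figure D3:**
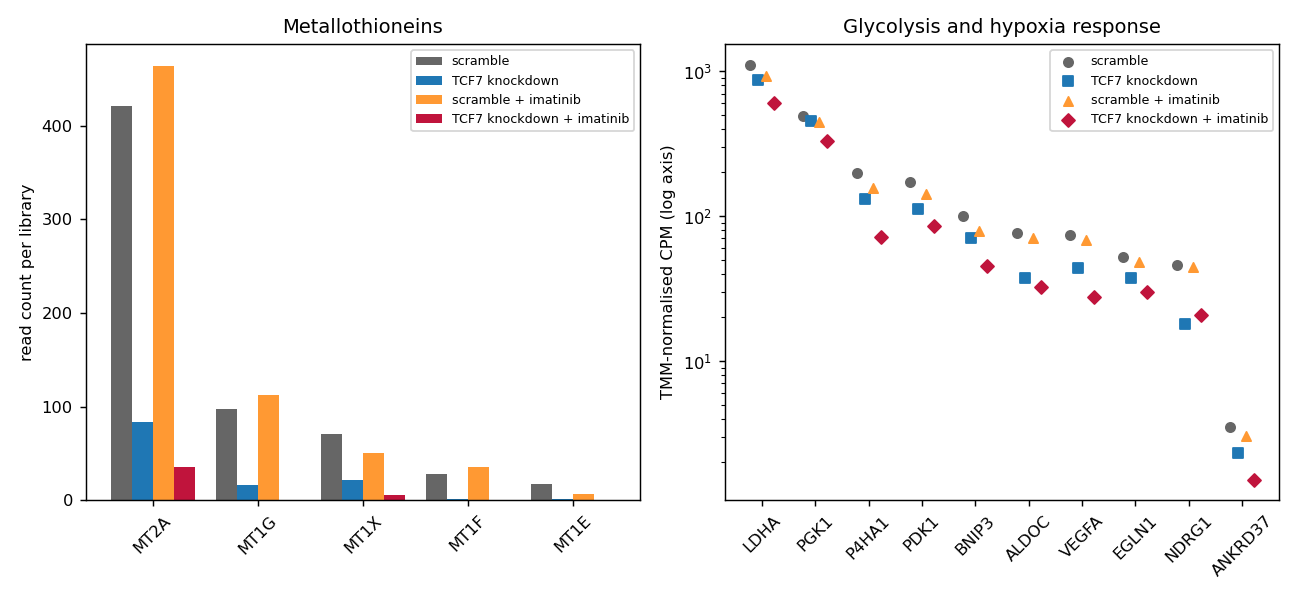
Left, read counts of 5 metallothionein genes in each of the 4 libraries; MT2A goes from 421 in the scramble to 36 in the combination library, and MT1G, MT1F and MT1E are at 0 there. Right, TMM-normalised CPM on a log axis of 10 genes of glycolysis and of the hypoxia response, where the combination is the lowest of the 4 libraries for each gene but NDRG1.

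Genes of the response to low oxygen were mostly lower. Hypoxia-inducible factors are known to switch on glycolysis, vessel growth and mitophagy genes when oxygen is short, and they can also be held up by growth signals. Of 19 genes of the hypoxia response outside glycolysis, 17 were below 0 and 5 were 2-fold lower, while 0 were 2-fold higher. Over all genes 1.92% were 2-fold lower and 2.83% higher, and 6486 of 13296 were below 0. The list median was -0.31 as measured and -0.34 with the GC trend removed, against 0.01 and 0.02 over all genes. Its median was -0.13 for the knockdown alone and -0.13 for imatinib alone.

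P4HA1, a subunit of the collagen prolyl hydroxylase (chromosome 10, 73007217 to 73096974), was at 199.1 CPM in the scramble library, 131.6 in the knockdown, 156.4 with imatinib and 71.7 in the combination. VEGFA, the main vessel growth factor (chromosome 6, 43770184 to 43786487), was at 73.8, 43.6, 68.5 and 27.7 CPM. BNIP3, a mitophagy receptor, was at 99.2, 70.5, 78.3 and 45.3 CPM. For these 3 genes the combination was the lowest library and each treatment alone lay between it and the scramble library. The ratios were -1.47 (-1.54 to -1.40), -1.41 (-1.53 to -1.30) and -1.13 (-1.22 to -1.04). NDRG1, a stress-response gene, was at 46.2, 18.1, 44.8 and 20.9 CPM, with both knockdown libraries low. ANKRD37 had a ratio of -1.17 at low counts, and EGLN1 and EGLN3, the oxygen-sensing prolyl hydroxylases, had -0.79 and -0.78. The 2 members above 0 were BHLHE40 at 0.23 and HILPDA at 0.24. CA9, a carbonic anhydrase below the filter, had 29, 2, 25 and 0 counts and was at least 9.23-fold lower than the measured scramble count, with an interval that ended at -2.82.

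In glycolysis 13 of 21 genes were below 0, 2 were 2-fold lower and 0 were 2-fold higher, with a median of -0.14. Over all genes 6486 of 13296 were below 0 and 1.92% were 2-fold lower. With the GC trend removed the list median was -0.27 and 3 of the 21 were above 0. As measured, it was -0.18 for the knockdown alone and 0.04 for imatinib alone. ALDOC, an aldolase, was at 76.2, 37.1, 70.5 and 32.1 CPM, a ratio of -1.24 (-1.35 to -1.14). PDK1, which shuts off pyruvate dehydrogenase, was at 171.0, 112.1, 142.5 and 85.1 CPM, a ratio of -1.01. LDHA, the lactate dehydrogenase subunit, was at 1106, 874, 927 and 605 CPM, a ratio of -0.87 (-0.90 to -0.85). PGK1 had a ratio of -0.58. The combination held the lowest value of all 4 genes. At the other end of the list stood PKM at 0.41, TPI1 at 0.29 and PFKL at 0.28.

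Promoters of 3 of the lower genes are shown because they hold the core of the hypoxia response element, ACGTG. They are 250 bases before the RefSeq start on GRCh38.p14, from 5′ to 3′ of the minus strand: chr17:28576896-28577145 for ALDOC, chr10:73096867-73097116 for P4HA1 and chr10:131981924-131982173 for BNIP3. Capitals mark the core on either strand. CACGTG, which is also an E-box, counts as 2 overlapping matches, so there are 3 matches in ALDOC, 1 in P4HA1 and 2 in BNIP3.
ALDOC: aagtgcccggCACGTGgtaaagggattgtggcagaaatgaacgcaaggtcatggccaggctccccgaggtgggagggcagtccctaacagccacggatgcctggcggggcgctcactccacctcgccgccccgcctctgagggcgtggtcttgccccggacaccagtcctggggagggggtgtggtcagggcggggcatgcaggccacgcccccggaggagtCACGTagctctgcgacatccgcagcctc
P4HA1: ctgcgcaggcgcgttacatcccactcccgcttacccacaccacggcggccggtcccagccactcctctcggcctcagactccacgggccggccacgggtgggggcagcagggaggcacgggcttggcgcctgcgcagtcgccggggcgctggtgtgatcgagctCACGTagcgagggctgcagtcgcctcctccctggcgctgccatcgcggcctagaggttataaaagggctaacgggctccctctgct
BNIP3: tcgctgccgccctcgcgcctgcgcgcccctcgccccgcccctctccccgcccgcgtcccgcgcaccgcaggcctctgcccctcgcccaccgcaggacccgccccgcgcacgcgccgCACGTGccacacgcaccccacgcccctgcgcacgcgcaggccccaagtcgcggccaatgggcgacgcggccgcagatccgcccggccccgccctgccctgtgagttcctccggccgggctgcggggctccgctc
The core was present in 11 of 15 promoters found for the hypoxia list and in 13 of 20 found for the glycolysis list, against 18.5% of the 35116 promoters. Both lists hold genes that hypoxia-inducible factors are known to switch on, so these counts are no independent evidence. A match is a description of the letters and not evidence of binding. The GENCODE gene models of all 5 genes with a promoter shown start further upstream than these RefSeq starts, so parts of the stretches lie inside those models. For MT2A the whole stretch, with all its marked matches, lies inside the model.

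Genes of the integrated stress response and of amino acid supply were lower in part. Over all genes 1.92% were 2-fold lower and 6486 of 13296 were below 0. ATF4 is the factor that translates amino acid shortage and other stress into transcription, and ASNS, PSAT1, ALDH1L2 and SLC1A4 are among the genes it is known to activate. ATF4 mRNA itself had a ratio of -0.05. Of 15 regulators of this response 3 were 2-fold lower and 9 were below 0, with a median of -0.25 that became -0.29. It was -0.15 with no filter and -0.02 among members at 5 CPM or more in 2 libraries. The list median as measured was lower in the knockdown alone, at -0.37, and was 0.05 for imatinib alone. DDIT4, an inhibitor of mTORC1 (chromosome 10, 72273920 to 72276036), was at 40.7, 23.8, 43.8 and 12.4 CPM, a ratio of -1.70 (-1.87 to -1.54). ATF3 was at 3.44, 1.12, 2.70 and 1.07 CPM, a ratio of -1.62 (-2.28 to -1.12). STC2 had a ratio of -1.13. DDIT4 was low in both knockdown libraries and lowest in the combination, while ATF3 was as low in the knockdown alone.

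In serine, one-carbon and asparagine synthesis 10 of 15 genes were below 0 and 2 were 2-fold lower, with a median of -0.28 that became -0.27. The shares over all genes were 6486 of 13296 below 0 and 1.92% 2-fold lower. ALDH1L2, a mitochondrial enzyme of folate metabolism, was at 10.3, 3.51, 6.94 and 2.47 CPM, a ratio of -2.03 (-2.43 to -1.70). ASNS, the asparagine synthetase, was at 77.7, 42.1, 65.9 and 35.6 CPM, a ratio of -1.13 (-1.23 to -1.03). PSAT1 and MTHFD1L had ratios of -0.97 and -0.88. PHGDH, the first enzyme of serine synthesis, was at 237.5, 99.3, 210.7 and 169.6 CPM, so that it was lower in the knockdown alone than in the combination. Among 14 amino acid transporters, SLC1A4 was 2-fold lower with a ratio of -1.21 and 9 were below 0. SLC7A5 and SLC7A11 were also lower in the knockdown alone, at -1.16 and -1.11, than in the combination, at -0.49 and -0.62. The chaperones of the endoplasmic reticulum went the other way, with 14 of 23 above 0 and a median of 0.10 that became 0.16. CALR, the calcium-binding chaperone calreticulin, was at 825, 1122, 853 and 1231 CPM, and HSPA5 was at 480, 615, 512 and 655 CPM. Both were high in the 2 knockdown libraries. SDF2L1 was 2-fold higher at 1.10, and at 0.53 with the trend removed.

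**Figure D4:**
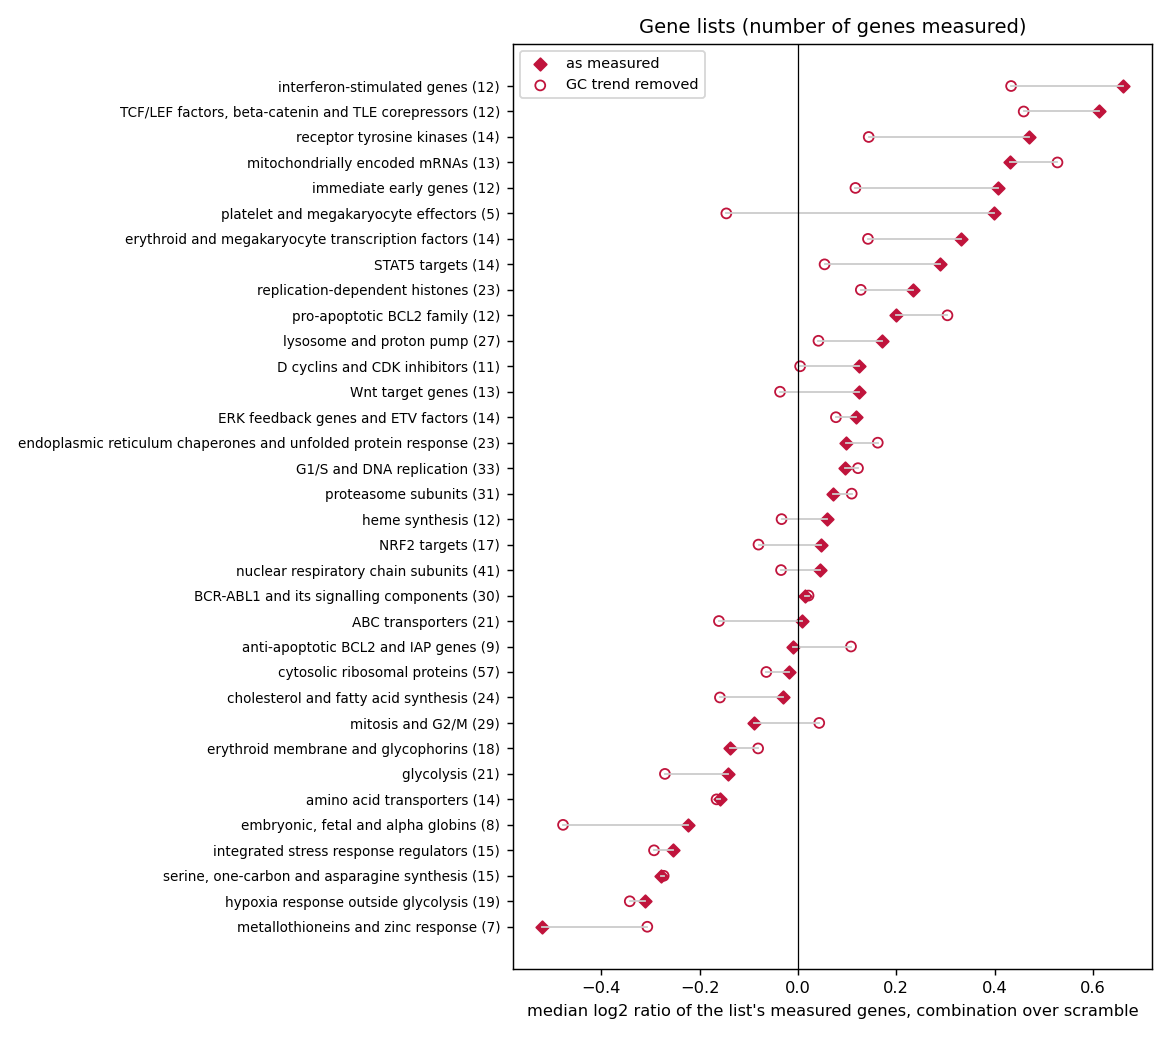
Median log2 ratio of the combination over the scramble library for each of 34 gene lists, with the number of genes measured in brackets. Filled diamonds are ratios as measured and open circles have the GC trend removed; as measured, the metallothionein and zinc list is lowest at -0.52 and the interferon-stimulated genes are highest at 0.66, while with the trend removed the globins are lowest at -0.48 and the mitochondrial mRNAs highest at 0.53.

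The other genes among the 12 lowest have varied roles. B3GAT1, the glucuronyltransferase that makes the CD57 epitope (chromosome 11, 134378504 to 134411918), was at 22.5, 7.26, 27.6 and 5.94 CPM, a ratio of -1.91 (-2.16 to -1.69). MAP3K21, a kinase of the mixed-lineage family, was at 14.3, 5.19, 11.3 and 3.98 CPM, a ratio of -1.82. FAM178B was at 26.8, 15.04, 26.4 and 8.06 CPM, a ratio of -1.72. KLHL6, a ubiquitin ligase adaptor of lymphoid cells, was at 18.7, 10.3, 17.9 and 7.11 CPM, a ratio of -1.39. In all 4 the combination was lowest, the knockdown was next and the 2 scramble libraries were highest. With the GC trend removed, EPPK1 (-1.83), ITGB4 (-1.70) and ALDOC (-1.51) entered the 12 lowest, in place of P4HA1, KLHL6 and KIT.

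KIT was the exception among the 12 lowest. This receptor of stem cell factor (chromosome 4, 54657918 to 54740715), itself a kinase that imatinib inhibits, was at 8.57 CPM in the scramble library, 8.80 in the knockdown, 4.53 with imatinib and 3.32 in the combination. Its level was low in the 2 libraries with imatinib, and the knockdown alone had a ratio of 0.04. The ratio of the combination was -1.35 (-1.71 to -1.04), and -1.21 with the trend removed. Among 14 receptor tyrosine kinases, IGF1R, the receptor of insulin-like growth factor 1, was also 2-fold lower at -1.23 (-1.48 to -1.01), and there both knockdown libraries were low, at 7.39 and 6.73 CPM against 15.9 and 14.9 CPM. FGFR1 was 2-fold higher at 1.05 but scarce, at 1.15 and 2.43 CPM in the scramble and combination libraries. AXL had a ratio of 0.87 and MET of 0.94. The list median was 0.47, and 0.14 with the trend removed.

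The highest genes fell into several patterns over the 4 libraries. LSR, a lipoprotein receptor of cell junctions (chromosome 19, 35248330 to 35267964), was at 5.52, 14.6, 8.10 and 24.6 CPM, a ratio of 2.14 (1.92 to 2.39), and 1.59 with the GC trend removed. VSIR, an immune checkpoint receptor, was at 7.52, 11.004, 11.6 and 25.8 CPM, a ratio of 1.77 (1.57 to 1.99). ROGDI was at 3.11, 4.57, 4.18 and 9.14 CPM, a ratio of 1.54. For these 3 genes both treatments alone lay between the scramble and the combination libraries. CLU, the secreted chaperone clusterin, was at 2.87, 4.93, 2.82 and 9.70 CPM, with imatinib alone level with the scramble library.

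SPARC, a secreted matrix glycoprotein (chromosome 5, 151661096 to 151687165), was at 6.70, 25.2, 6.62 and 24.02 CPM, a ratio of 1.83 (1.62 to 2.06). The knockdown alone had a ratio of 1.90 and imatinib alone of -0.02. PLXNA2, a semaphorin receptor, was at 9.11, 26.9, 9.73 and 33.0 CPM. SLAMF6, a lymphoid cell receptor, was at 12.3, 38.3, 9.32 and 40.9 CPM. AIM1 and CYTIP had ratios of 1.70 and 1.61 over knockdown ratios of 1.23 and 1.33. In these 5 genes both knockdown libraries were high and both scramble libraries low. With the GC trend removed TRANK1 (1.40) and IL1RL1 (1.40), the interleukin-33 receptor, were among the 12 highest, and both had the same pattern: TRANK1 was at 35.7, 116.5, 34.7 and 95.4 CPM. PPDPF, ROGDI and EME2 were no longer among them. EME2, a subunit of a DNA repair endonuclease, was at 4.89, 8.01, 10.8 and 13.8 CPM and went from 1.48 to 0.91.

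**Figure D5:**
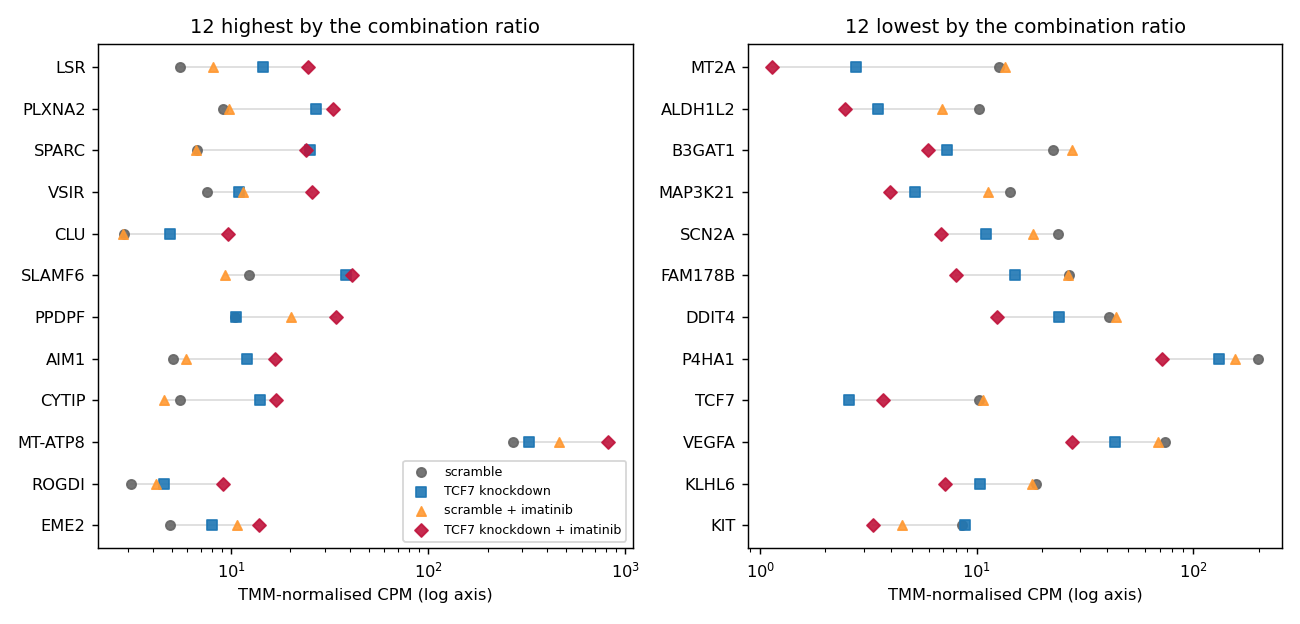
TMM-normalised CPM on a log axis of the 12 highest and the 12 lowest protein-coding genes by the ratio of the combination over scramble, with 1 symbol per library. KIT is the gene on the right where the knockdown library lies at the scramble level (8.80 and 8.57 CPM), and PPDPF the one on the left (10.6 and 10.4 CPM).

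Of the 13 mRNAs encoded in the mitochondrial genome, which specify core subunits of the respiratory chain and of ATP synthase, 11 were above 0, with a median of 0.43. With the GC trend removed the median was 0.53 and 13 were above 0. MT-ATP8, an ATP synthase subunit, was at 270.2 CPM in the scramble library, 324.7 in the knockdown, 460.4 with imatinib and 819.8 in the combination, a ratio of 1.60 (1.57 to 1.64). It shares 22.2% of its exonic bases with another gene. The next members were MT-ND6 at 0.76 and MT-ND2 at 0.61, both subunits of complex I. MT-ND2 was at 3876, 4339, 4166 and 5919 CPM, with the combination highest and the other 3 libraries close together. MT-ND3 and MT-CO1 lay at -0.05 and -0.03. Mitochondrial genes took 8.28% of the counts of the combination library against 6.76% of the scramble library. The 41 respiratory chain subunits encoded in the nucleus had a median of 0.05, with 0 at 2-fold in either direction.

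The erythroid genes, which K562 cells are known to express at a level between progenitor and red cell, were spread around 0. Among the globins, HBE1, the embryonic beta-like globin, was at 1182, 910, 1261 and 1281 CPM, a ratio of 0.12. The fetal genes HBG1 and HBG2 are near-identical, and their summed level was 508, 480, 436 and 367 CPM, a ratio of -0.47. HBA1 and HBA2 have the same protein and share most of their sequence, so reads could be split between them: HBA2 had a ratio of 1.25 and HBA1 of -0.34, and their sum of 23.9, 28.2, 40.0 and 34.4 CPM gave 0.52. The median of the 8 measured globins was -0.22, and -0.48 with the trend removed. Without that removal it was -0.11 with no filter, and also -0.11 among members at 5 CPM or more in 2 libraries. The summed level of the list was 1818 CPM in the scramble library and 1781 CPM in the combination. Of 14 erythroid and megakaryocyte transcription factors 0 were at 2-fold, against 4.75% over all genes, and 10 were above 0. LYL1 at 0.96 and ZFPM1 at 0.90 were highest, and LMO2 was lowest at -0.87. GATA1, the master factor of red cells, was at 86.0, 90.1, 113.7 and 133.1 CPM. Its ratio of 0.63 became 0.22 with the trend removed. The median of the 14 factors went from 0.33 to 0.14.

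In the pathway that imatinib blocks, 0 of 30 measured genes of BCR-ABL1 and its signalling components were at 2-fold, with 15 above and 15 below 0. Over all genes 4.75% were at 2-fold, and a list of this size would hold few at that share. ABL1 and BCR both had a ratio of 0.33, which became -0.05 and -0.07 with the GC trend removed. In this line reads of both genes include those of the fusion. LYN, a SRC-family kinase studied in imatinib resistance, was lowest of the list at 1355, 910, 1259 and 783 CPM, a ratio of -0.79 (-0.81 to -0.77), and -0.71 with the trend removed. Of 14 STAT5 targets 8 were above 0, and SOCS1 was 2-fold higher at 1.14 but at 0.44 with the trend removed. PIM1 had a ratio of 0.59, CISH of 0.35, SOCS2 of -0.06 and CCND2, a D cyclin, of -0.51. The list's median of 0.29 became 0.05. Among immediate early genes 10 of 12 were above 0, with a median of 0.41 that became 0.12. MYC was at 339.4, 345.8, 408.5 and 423.4 CPM, a ratio of 0.32 (0.28 to 0.36) that became 0.15.

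Of the pro-apoptotic BCL2 family 9 of 12 were above 0, 2 were 2-fold higher and 1, BNIP3, was 2-fold lower, with a median of 0.20 that became 0.30. With the GC trend removed 1 was 2-fold higher and 2 were 2-fold lower. The summed level of the list was 521.0 CPM in the scramble library and 489.1 CPM in the combination. BBC3, the p53 target also called PUMA, had 34, 45, 88 and 117 counts and a ratio of 1.79 (1.29 to 2.45), which became 1.07. BAD was at 2.99, 2.20, 3.37 and 7.27 CPM, a ratio of 1.27 that became 0.67. BBC3 was high in both libraries with imatinib and BAD in the combination alone. BAK1 and BAX, the pore-forming members, had ratios of 0.88 and 0.65. BCL2L11, known as BIM, had 0.22. Of 9 anti-apoptotic genes 0 were at 2-fold, against 4.75% over all genes. BCL2 had a ratio of -0.44 (-0.86 to -0.05), MCL1 of -0.13 and BCL2L1, known as BCL-XL, of 0.58.

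Besides TCF7 itself, 0 of the other 11 measured TCF/LEF factors, beta-catenin partners and TLE corepressors were at 2-fold, and 9 of the 12 in all were above 0. The median was 0.61, and 0.46 with the GC trend removed. TCF7L2, another DNA-binding factor of the family, was at 16.6, 20.99, 16.5 and 24.97 CPM, a ratio of 0.59 (0.43 to 0.75) that became 0.66. LEF1 was at 20.3, 22.0, 23.5 and 17.4 CPM, a ratio of -0.22, and CTNNB1, which encodes beta-catenin, had -0.05. TCF7L1, below the filter, had 5, 0, 6 and 16 counts. BCL9L and AES, a coactivator and a short TLE protein, had 0.95 and 0.78. Among Wnt target genes 8 of 13 were above 0 and 2 were 2-fold lower, VEGFA and TCF7 itself, which is on this list too. The median was 0.12, which became -0.04. AXIN2, a feedback inhibitor and standard readout of the pathway, was scarce at 2.02, 2.43, 2.73 and 3.10 CPM, a ratio of 0.60 (0.15 to 1.09). NOTUM, below the filter, had 18, 2, 16 and 0 counts and was at least 5.73-fold lower than the measured scramble count, with an interval that ended at -2.07. CCND1 had a ratio of 0.12.

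In the cell cycle lists 0 genes were at 2-fold, against 4.75% over all genes. That share is mostly of scarce genes. Of the 10105 genes with a mean level of at least 5 CPM, 125 were 2-fold higher and 49 were 2-fold lower, so few would be awaited in these lists. Of 33 genes of G1/S and DNA replication 25 were above 0, with a median of 0.10 that became 0.12. E2F1 had a ratio of 0.76 and CDT1, a replication licensing factor, of 0.71, and these became 0.30 and 0.16. MCM6, a subunit of the replicative helicase, was at 219.5, 311.6, 205.9 and 282.7 CPM, high in both knockdown libraries. Of 29 genes of mitosis 20 were below 0, and the median of -0.09 became 0.04 with the trend removed. CDKN2C and CDKN1B, both inhibitors of cyclin-dependent kinases, had 0.87 and 0.56.

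Of 12 interferon-stimulated genes that passed the filter, 11 were above 0, and the median of 0.66 as measured was the highest of the 34 lists. It became 0.43 with the GC trend removed, below the mitochondrial mRNAs (0.53) and the TCF/LEF list (0.46), and 0.38 with no filter, against 0.61 for the TCF/LEF list. The other 16 in the table did not pass. ISG15, a ubiquitin-like protein, was at 2.99, 4.20, 4.38 and 6.54 CPM, a ratio of 1.11 (0.78 to 1.49) that became 0.62. BST2 was at 39.2, 55.0, 50.5 and 73.2 CPM and IFITM1 at 21.2, 24.2, 36.0 and 40.3 CPM. In these 3 genes the combination was highest and the scramble library lowest. In the lysosome list GAA and CTSD, an acid glucosidase and an aspartic protease, were 2-fold higher at 1.37 and 1.27, and at 0.85 and 0.75 with the trend removed. Of 17 targets of NRF2, the factor of the oxidative stress response, 6 were below 0, and the median of 0.05 became -0.08. As measured, the list median was -0.33 for the knockdown alone and -0.01 for imatinib alone. ME1, the malic enzyme, was lowest at -0.74. SRXN1 was 2-fold higher at 2.25, with 0.54, 0.59, 1.36 and 2.81 CPM, and passed the filter through the 2 imatinib libraries alone. FTL, the ferritin light chain, had 0.88 (0.87 to 0.89), at 1912, 1690, 2480 and 3519 CPM.

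Of 21 ABC transporters, the family of drug efflux pumps, 0 were at 2-fold, against 4.75% over all genes. There were 11 above and 10 below 0, and the median of 0.01 became -0.16 with the GC trend removed. ABCC1 had a ratio of 0.01 (-0.08 to 0.09), which became -0.19 with the GC trend removed. ABCC2 was at 2.69, 1.61, 2.61 and 2.18 CPM, a ratio of -0.29 whose counting interval of -0.78 to 0.17 spans 0. ABCB1, the best known efflux pump of chemotherapy drugs, had 11, 4, 13 and 0 counts and was at least 3.50-fold lower than the measured scramble count, and with error in both counts the interval ended at -1.26. ABCG2 had at most 1 count per library. ABCA3, a pump of lipids, was lower in the knockdown alone, at -1.19, than in the combination, at -0.71. Platelet and megakaryocyte genes rest on 5 measured members. TUBB1, the platelet beta-tubulin, was at 34.3, 19.8, 26.9 and 17.1 CPM, and PLEK, or pleckstrin, was scarce and 2-fold higher at 1.64.

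Among genes of types other than protein coding, 2361 in all, the median ratio was -0.09, against 0.03 for 10935 protein-coding genes. Processed pseudogenes had a median of -0.21 over 374 genes and sense-intronic RNAs -0.24 over 182, which became -0.15 and -0.10 with the GC trend removed. The highest with a mean level of at least 5 CPM was TMEM198B, a transcribed unitary pseudogene, at 6.25, 8.64, 9.99 and 15.02 CPM, a ratio of 1.26 (1.03 to 1.51). GTF2IP13 followed at 1.06 and LINC00847 at 1.05. The lowest were RP11-124N14.3 at -1.24, RP4-706A16.3 at -1.17 and LL22NC03-2H8.5 at -1.14. LL22NC03-2H8.5 was at 44.0, 42.4, 28.6 and 19.9 CPM, low in both libraries with imatinib.

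LYN lies in a stretch of chromosome 8 from PCMTD1 to LINC01602 (51817575 to 57984126) that was singled out on these same libraries earlier, so its direction is a description and not independent evidence. All 17 of its genes with a mean level of at least 5 CPM were below 0, between -1.04 and -0.60, and 3 were 2-fold lower. The median was -0.78, and -0.60 with the GC trend removed. It was -0.57 for the knockdown alone and -0.13 for imatinib alone. RPS20, a ribosomal protein gene in this stretch, was at 3996, 2704, 3189 and 1947 CPM, a ratio of -1.04 (-1.05 to -1.02). It was the 1 gene of 57 for cytosolic ribosomal proteins at 2-fold, and the median of those 57 was -0.02. LINC01602 was at 17.0, 8.18, 18.6 and 8.22 CPM, low in both knockdown libraries. Whether the stretch differs in DNA copies between the cultures was not tested.

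Some of the genes named overlap other genes, and the strand setting of the counting is not given in the sources used here, so their values are less certain. The share of exonic bases that another gene also covers was 90.01% for HBE1, 87.7% for RP11-124N14.3, 85.0% for SRXN1, 57.3% for HBG2, 52.7% for CTSD, 44.6% for ASNS, 42.97% for BCL2L1, 41.2% for DDIT4, 38.8% for BCL9L, 38.5% for CA9, 38.3% for ROGDI, 35.2% for ANKRD37, 33.98% for TUBB1, 32.5% for IFITM1, 30.96% for TMEM198B, 30.004% for EME2, 25.2% for AXIN2, 23.7% for BAD, 20.95% for LINC00847 and 18.1% for MT1X. Beside these and MT-ATP8, the other genes with values here were under that last share. The metallothionein genes are also close copies of each other, and reads may have been split among them.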

How the data were processed

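The authors deposited 1 table of 4 libraries, whose columns per gene are read counts and FPKM values, per the file headers. RNA was depleted of ribosomal RNA and made into strand-keeping libraries, per the labels' protocols. The submitters' processing notes name FastQC, HISAT2, HTSeq 0.6.1 and GRCh38. The annotation release and the strand setting were not given in the sources used here. Whole-number counts were taken as the authors deposited them. The FPKM columns are handled as a score of the authors, because 6 genes have negative values, and served as an alternative only. Gene identifiers were matched to GENCODE 29 (28329 matched, 26313 with the same version) for type, position and GC content of the longest transcript. The promoters are from RefSeq.

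Ratios are differences of log2 CPM from edgeR 4.0.16 (R 4.3.3) with TMM scaling and a prior count of 2, for the genes that reached 1 CPM in 2 libraries. The GC trend was a smooth fit by mgcv 1.9.3 over 13255 genes with a known GC content, which was also tested on simulated data. A level is TMM-normalised CPM. Counting intervals are exact binomial intervals at 95%, and a count of 0 allows 3 counts. With 1 library per group no p-value was computed.

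The comparison, gene lists and rule for named genes were chosen with earlier results of these data known. The rule takes TCF7; the 12 highest and 12 lowest protein-coding genes with a mean level of at least 5 CPM, as measured and with the GC trend removed; the 6 highest and 6 lowest of other types; list members at 2-fold or else up to 4 with the largest ratio; the metallothionein and globin lists; and 16 fixed genes such as KIT and MYC. Not every gene that the rule takes is reported here. Other list members are named as examples of the ends or middle of a list, and genes below the filter for their counts; these, and PCMTD1 at the end of the stretch on chromosome 8, were chosen after their values were seen. The alternatives were DESeq2 1.42.0 size factors, total counts, no filter, a stricter filter (5 CPM), a smaller prior count (0.5), the deposited FPKM plus 0.1 in log2, thinned counts, other GC and length trends, protein-coding genes only and a limit of 1.5-fold.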

Additional observations from a re-analysis of the deposited data

How the results depend on the processing

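The number of genes at 2-fold or more was 631 as reported, 4308 with no filter on low counts, 185 with a filter at 5 CPM and 2367 at a limit of 1.5-fold. The higher genes, 376 as reported, came to 2357 with no filter, 129 at 5 CPM, 192 with the GC trend removed, 199 with a trend over GC content and length removed and 1547 at 1.5-fold. The lower genes, 255 as reported, came to 1951 with no filter, 56 at 5 CPM, 153 among protein-coding genes only and 820 at 1.5-fold. Of the 34 list medians 12 were under 0.1 in size, and 6 of these changed sign under some alternative, among them ABC transporters (0.01 to -0.161) and anti-apoptotic genes (-0.01 to 0.108) with the GC trend removed; of the medians of at least 0.1, 2 changed sign. The platelet and megakaryocyte list went from 0.40 to -1.003 at 5 CPM, where the filter leaves fewer of its genes, to -0.145 with the GC trend removed and to -0.150 with GC and length. The Wnt target list went from 0.12 to -0.036 and -0.045 under the same 2 removals. Over 81 named genes, 557 of 566 alternative ratios had the sign of the reported one; 42 ratios lay outside their counting interval with the GC trend removed, 40 with GC and length, 2 from the deposited FPKM and 0 under the other scalings, the other prior count or thinning.

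Each group has 1 library, so no replicate was left out. Differences between cultures, infections and library preparations cannot be told apart from the treatments. No paired analysis was possible because each group has 1 library and no test was run. The counting intervals hold sequencing depth only. For scarce genes such as AXIN2 and ABCC2 the depth leaves intervals wider than the size of the ratio.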
